A study of Mus musculus with 6 samples.

Results

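A set of 10 genes of vessel growth and its restraint was followed in mouse corneas: the angiopoietins Angpt1 and Angpt2, their receptors Tek and Tie1, the angiopoietin-like genes Angptl2, Angptl4 and Angptl7, the thrombospondins Thbs1 and Thbs2, and Serpinf1, which encodes pigment epithelium-derived factor (PEDF). They were chosen by symbol, as 10 of the 55421 genes in the count files. RNA-seq libraries were made from corneas of 3 wildtype samples (W1 to W3) and 3 samples that carried a heterozygous mutation of Pax6 (M1 to M3), all aged 20 weeks. Pax6 encodes a transcription factor that the eye and the corneal epithelium depend on, and loss of a single copy causes aniridia with a corneal disease in which vessels can enter the clear tissue. The labels name neither the mutant allele nor the strain, nor whether a library holds 1 cornea or several.

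Gene counts were 16858005 to 21846406 per library. Pax6 was lower in all 3 mutant libraries (356 to 454 CPM, counts scaled to the size of the library) than in the wildtype libraries (746 to 849 CPM), a 1.97-fold difference. Krt12, the keratin of differentiated corneal epithelium, was at 4145 CPM or more in every library, and the listed stromal markers had counts in every library except Thy1 and Ogn, which were at 0 in W1. Library W1 lay apart from the others on the first principal component, and M1 was the only female library by Xist and Y-linked counts. Sex could therefore not be told apart from library M1. Results that depend on either library are given with and without it.

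The normal cornea has no blood vessels, and its clarity depends on keeping them out. Angiopoietin-1 activates the receptor tyrosine kinase Tie2, encoded by Tek, and steadies vessels, whereas angiopoietin-2 competes for the same receptor and loosens them in most settings; Tie1 is a related receptor without a firmly established ligand that modifies Tie2 signalling. Thrombospondins and PEDF are secreted proteins that restrain endothelial cells, and the angiopoietin-like proteins share the fold of the angiopoietins but do not bind Tie2.

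Angptl7, Thbs2, Serpinf1 and Angpt2 rose in mutant corneas, and Angptl4 fell. Angptl7 rose 11.2-fold, Thbs2 8.74-fold, Serpinf1 5.66-fold and Angpt2 3.79-fold, while Angptl4 fell 3.48-fold (quasi-likelihood test of edgeR, p-values adjusted by Benjamini-Hochberg over 15209 genes, threshold 0.05). Angpt1, Angptl2, Thbs1, Tie1 and Tek did not pass that test. The genes that rose include known inhibitors of vessel growth and the vessel-loosening ligand. Of all tested genes 5.59% were called higher and 4.46% lower, 10.1% in both directions, against 4 and 1 of the 10 genes here. The 2 genotypes were without overlap in 8 of the 10 genes, as in 31.9% of all tested genes. The median log2 fold change of the 10 genes was 2.02, against 0.01 over all tested genes. The 10 genes were chosen with earlier results of these data known, so these contrasts only describe them. All 10 passed the low-count filter, but Angpt1, Tek and Tie1 exceeded its level in only 2 of 3 wildtype libraries and passed through the mutant ones. In whole tissue, more cells of a type and more RNA per cell cannot be told apart.

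**Figure D1:**
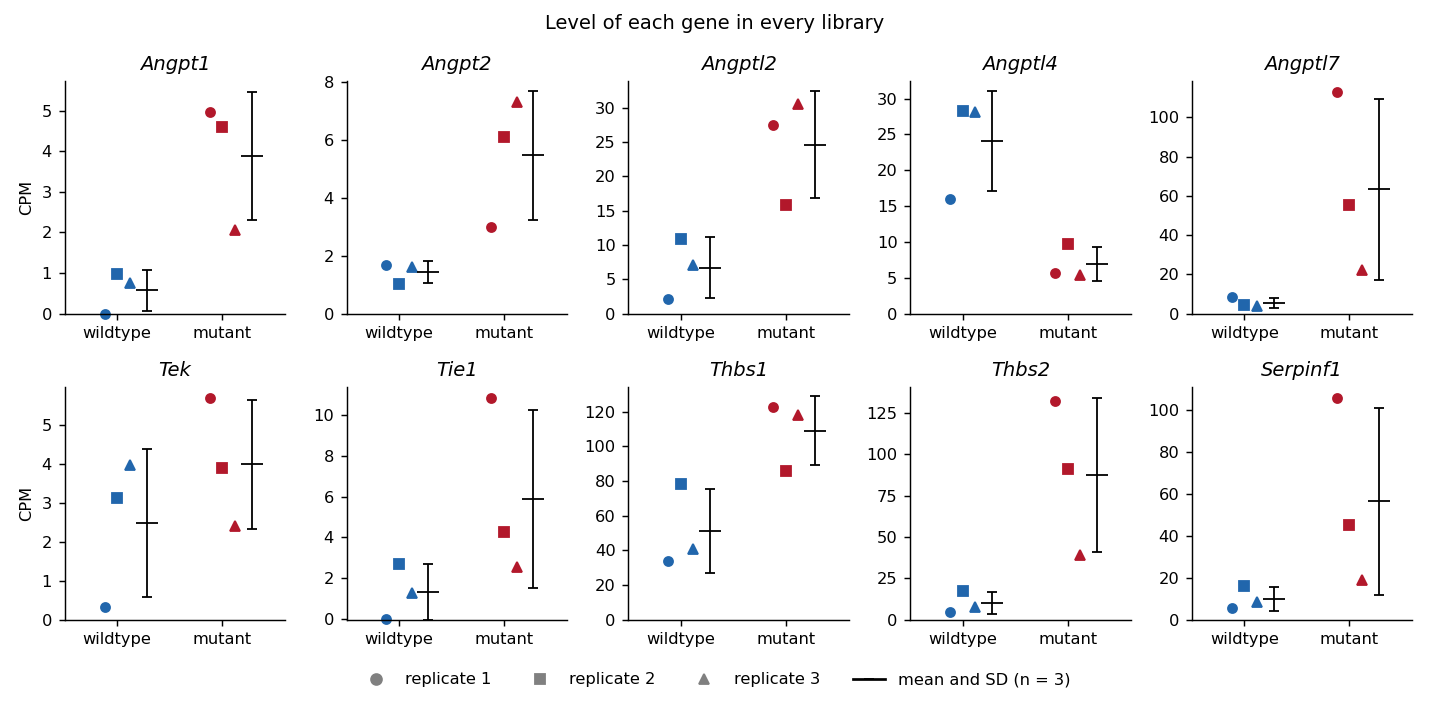
Level of each of the 10 genes in CPM (vertical axes, each panel with its own scale) in the 3 wildtype (blue) and 3 mutant (red) libraries; bars give the mean and SD. Angptl7 stood at 4.01 to 8.57 CPM in wildtype and 22.0 to 113 CPM in mutant corneas, and Angptl4 moved the other way, while the groups of Tek and Tie1 overlapped.

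The upstream sequences of the 3 genes with the largest called rises are shown. They come from RefSeq windows on GRCm38.p6, which held 6 of the 10 genes, and start 250 bases before the RefSeq start on the gene's own strand. Each was searched on both strands for the TATA box TATAAA, the CCAAT box CCAAT, the GC box GGGCGG, the core of hypoxia response elements ACGTG, the AP-1 site TGACTCA and the E-box CAGCTG, and capitals mark the matches. The Angptl7 window is chr4:148500463-148500712 (minus strand), that of Thbs2 is chr17:14694263-14694512 (minus strand), and that of Serpinf1 is chr11:75422702-75422873 (minus strand), which ends before the first annotated exon.
Angptl7: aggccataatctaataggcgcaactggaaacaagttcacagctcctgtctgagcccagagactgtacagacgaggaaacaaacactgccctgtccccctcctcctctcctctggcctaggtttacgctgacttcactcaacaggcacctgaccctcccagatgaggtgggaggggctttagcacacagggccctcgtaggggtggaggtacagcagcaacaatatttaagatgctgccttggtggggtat
Thbs2: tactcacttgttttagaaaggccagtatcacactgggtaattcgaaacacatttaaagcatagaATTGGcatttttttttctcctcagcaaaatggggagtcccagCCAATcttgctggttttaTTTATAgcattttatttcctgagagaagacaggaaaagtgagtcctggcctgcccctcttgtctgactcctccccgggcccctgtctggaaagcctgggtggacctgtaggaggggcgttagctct
Serpinf1: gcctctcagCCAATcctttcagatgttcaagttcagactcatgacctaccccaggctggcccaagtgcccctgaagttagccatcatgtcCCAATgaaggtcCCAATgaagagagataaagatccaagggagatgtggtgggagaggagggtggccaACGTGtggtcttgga
CCAAT or its complement occurred 2 times in the Thbs2 window and 3 times in that of Serpinf1, and was present in 33.8% of all 32851 windows of 250 bases and 23.6% of their first 172 bases. TATAAA was found once in the Thbs2 window, on the opposite strand, and in 12.4% of all windows. ACGTG was found once in the Serpinf1 window and in 10.7% of all windows of 172 bases. None of the 6 motifs was found in the Angptl7 window, so no searched motif was shared by the 3 genes.

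Angpt2, the ligand that competes with angiopoietin-1, was low in wildtype and higher in every mutant library. Its levels were 1.70, 1.02 and 1.6 CPM in W1 to W3 and 3.00, 6.10 and 7.34 CPM in M1 to M3. The lowest mutant library was 1.76 times the highest wildtype library. This gave a log2 fold change of 1.92 ± 0.48 (SE; adjusted p = 0.041, edgeR's quasi-likelihood test). The call was lost when M2 (adjusted p = 0.14), M3 (0.19), W2 (0.12) or W3 (0.087) was left out. Angpt2 (ENSMUSG00000031465) maps to chromosome 8 (18690263 to 18741562, minus strand of GRCm38, the build of all coordinates here), inside Mcph1 on the other strand, with no shared exon base.

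Angpt1, the activating ligand, was rarer than Angpt2 in the wildtype corneas, with 0, 17 and 14 counts in W1 to W3 against 81, 83 and 46 in M1 to M3. In CPM these were 0, 0.965 and 0.749 in wildtype and 4.96, 4.61 and 2.07 in mutant corneas, and the groups did not overlap. A count of 0 in W1 allows up to 3 counts, or 0.170 CPM, counting error only. The log2 fold change of Angpt1 was 2.74 ± 1.01 (SE), and it did not pass the test (adjusted p = 0.14, edgeR's quasi-likelihood test). Without W1 it passed, with an adjusted p of 0.046 in the same test, and DESeq2 called it with all libraries (0.022). Angpt1 (ENSMUSG00000022309) maps to chromosome 15 (42424723 to 42676977, minus strand). The antisense gene Gm17473 overlaps 14.2% of its exon bases and had 1 count over all libraries.

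The balance of the angiopoietins was not uniform among mutant corneas. Per kilobase of exon, the ratio of Angpt2 to Angpt1 was 0.853 in M1, 1.87 in M2 and 5 in M3, and 1.49 in W2 and 3.02 in W3; W1 had no Angpt1 count. M1 was the only library of the 5 with more Angpt1 than Angpt2 on this scale, and the genotypes overlapped.

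Tie1, the partner receptor, had 176, 77 and 57 counts in M1 to M3 and 0, 48 and 24 in W1 to W3. These were 10.8, 4.27 and 2.57 CPM in mutant and 0, 2.72 and 1.28 CPM in wildtype, so that the lowest mutant library lay just under the highest wildtype library. M1 alone accounted for most of the spread within the mutant group. Its log2 fold change of 2.13 ± 1.12 (SE) did not pass (adjusted p = 0.30, edgeR's quasi-likelihood test), and was 0.75 without M1 and W1. Tek, the angiopoietin receptor, was the member with the smallest difference. It stood at 5.69, 3.88 and 2.39 CPM in M1 to M3 and at 0.340, 3.12 and 3.96 CPM in W1 to W3. Only W1 was clearly low, and the other libraries of both genotypes were interleaved. The log2 fold change of Tek was 0.68 ± 0.77 (SE; adjusted p = 0.66, edgeR's quasi-likelihood test) and turned to -0.19 without M1 and W1. Tie1 (ENSMUSG00000033191) maps to chromosome 4 (118471191 to 118490061, minus strand) and Tek (ENSMUSG00000006386) to another stretch of that chromosome (94739289 to 94874976, plus strand).

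Markers of blood vessel endothelium did not pass the test either, and their sum was lowest in W1, as both receptors were. Summed over the 20 listed genes, they stood at 18.2 CPM in W1, 90.7 in W2 and 87.7 in W3, and at 289, 124 and 126 CPM in M1 to M3. Cdh5, the cadherin of endothelial junctions, was at 0 in W1 and at 5.13 to 31.9 CPM in the other libraries; Plvap, a protein of fenestrated capillaries, was also at 0 in W1. All 18 tested markers had a log2 fold change above 0, with a median of 1.74, yet 0 passed edgeR's test, 5 had an unadjusted p below 0.05, and DESeq2 called 3 and limma-voom 1. In edgeR, 3 passed without W1 and 9 with no low-count filter. The marker with the smallest p, Vwf (von Willebrand factor), was at 17.7 to 25.8 CPM in mutant and 2.10 to 9.76 CPM in wildtype corneas (adjusted p = 0.083, edgeR's quasi-likelihood test). Per 1000 counts of these markers, Tek was at 18.9 to 31.3 in mutant and 18.8 to 45.1 in wildtype, and Tie1 at 20.3 to 37.2 and 0 to 30.1, so that both overlapped. For Tek, W1 was just under the mutant range, and W2 and W3 (34.4 and 45.1) were above it. Of 6 tested lymphatic markers 0 passed, with 2 at an unadjusted p below 0.05 and 2 called by DESeq2 (0 by limma-voom, 3 by edgeR with no low-count filter); their sum was 90.9 to 156 CPM in mutant and 31.8 to 111 CPM in wildtype corneas. Of 9 tested pericyte and smooth muscle genes Abcc9, a potassium channel subunit, rose 3.38-fold and Notch3, which epithelia also express, fell 2.17-fold. Pdgfrb and Rgs5 did not pass (adjusted p = 0.13 and 0.29, edgeR's quasi-likelihood test). In W1 these 2 genes were at 2.78 and 0.227 CPM, whereas Abcc9 had its highest wildtype level there (62.5 CPM). The list's sum overlapped, at 523 to 785 CPM in mutant and 643 to 698 CPM in wildtype corneas. Notch3 made up most of that sum in wildtype corneas, at 466 to 617 CPM, against 205 to 277 CPM in mutant corneas. Of the 9 tested genes 8 had a log2 fold change above 0, with a median of 1.1, so the sum does not stand for most of the list.

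Among other genes of the Tie pathway 1 passed the test. Of 7 tested partners, Itga5, the fibronectin receptor chain to which angiopoietins can also bind, rose from 1.36 to 1.76 CPM to 3.96 to 4.94 CPM (log2 fold change 1.55 ± 0.39 SE, adjusted p = 0.042, edgeR's quasi-likelihood test); this call was absent without M1, M2, M3, W1 or W3, each left out alone. Svep1, a matrix protein that binds angiopoietins and Tie1, was at 37.2 to 44.2 CPM in mutant and 3.85 to 21.9 CPM in wildtype corneas, without passing (adjusted p = 0.067). Of the 5 other family members only Angptl1 passed the filter (log2 fold change 2.18 ± 1.37 SE, adjusted p = 0.39 by edgeR; unadjusted, and by DESeq2 and limma-voom, 0 were called), and Angptl8 had no count in any library.

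Angptl7, a secreted protein abundant in corneal stroma and trabecular meshwork and known to oppose vessel growth in the cornea, had the largest rise of the 10 genes. The mutant libraries held 1849, 994 and 488 counts and the wildtype libraries 151, 77 and 75. In CPM, M1 to M3 were at 113, 55.2 and 22.0 and W1 to W3 at 8.57, 4.37 and 4.01, and the lowest mutant library was 2.56 times the highest wildtype library. Its log2 fold change was 3.49 ± 0.59 (SE; adjusted p = 0.0098, edgeR's quasi-likelihood test). M1 was 5.15 times M3, a wide spread within a genotype, but the call held in all 16 alternative fits, with log2 fold changes of 2.77 to 3.91. Only 0.953% of tested genes had a larger log2 fold change. Angptl7 (ENSMUSG00000028989) maps to chromosome 4 (148495183 to 148500460, minus strand), within Mtor on the opposite strand but outside its exons.

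Angptl4, a secreted inhibitor of lipoprotein lipase that fatty acids and low oxygen induce, was the only gene of the 10 that fell. It had 282, 496 and 526 counts in W1 to W3 and 93, 175 and 120 in M1 to M3. Wildtype levels were 16, 28.2 and 28.1 CPM and mutant levels 5.69, 9.71 and 5.4 CPM, so that even the lowest wildtype library was 1.65 times the highest mutant library. Its log2 fold change was -1.80 ± 0.32 (SE; adjusted p = 0.011, edgeR's quasi-likelihood test). In the same test the adjusted p was 0.053 without M1, 0.063 without M3 and 0.058 with sex as a term, with log2 fold changes of -1.65 to -1.68. Since M1 was the only female, sex as a term is not a check separate from leaving out M1. Angptl4 (ENSMUSG00000002289) maps to chromosome 17 (33773750 to 33781830, minus strand).

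Angptl2, linked to inflammation and matrix turnover, was at 27.5, 15.8 and 30.5 CPM in M1 to M3 and at 2.10, 10.9 and 7.11 CPM in W1 to W3. Every mutant library was above every wildtype library, with W1 lowest. Its log2 fold change of 1.88 ± 0.53 (SE) missed the threshold (adjusted p = 0.061, edgeR's quasi-likelihood test); it was called by DESeq2 (adjusted p = 0.0016), by limma-voom (0.033) and by edgeR without W1 (0.024). Angptl2 (ENSMUSG00000004105) maps to chromosome 2 (33216069 to 33247717, plus strand), inside Ralgps1 on the opposite strand without a shared exon base.

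Genes that low oxygen induces, as it does Angptl4, were called in both directions. Of 15 tested hypoxia targets Vegfa, the main growth factor of vessels, rose 2.39-fold and P4ha1, a collagen prolyl hydroxylase, 1.66-fold, whereas the oxygen sensors Egln3 and Egln1 fell 4.61-fold and 1.44-fold; the list's median log2 fold change was 0.40. The count of genes called higher fell from 2 to 1 when M1, M2, M3 or W3 was left out, and the count called lower fell from 2 to 1 when M1, M2, M3 or W2 was left out. Lpl, the lipase that Angptl4 inhibits, ranged from 0.511 CPM in W1 to 19.4 CPM in M3 and did not pass (adjusted p = 0.48, edgeR's quasi-likelihood test); of the 3 tested genes of its system 0 were called by edgeR, DESeq2 or limma-voom and 0 had an unadjusted p below 0.05, while edgeR with no low-count filter called 1.

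Thbs2, a matricellular inhibitor of vessel growth made by fibroblasts, rose from 4.54, 17.6 and 7.86 CPM in W1 to W3 to 132, 91.1 and 38.9 CPM in M1 to M3. Counts were 80, 310 and 147 in wildtype and 2162, 1641 and 864 in mutant libraries. No mutant library came near the wildtype range, the lowest being 2.21 times the highest wildtype library. It had a log2 fold change of 3.13 ± 0.57 (SE; adjusted p = 0.013, edgeR's quasi-likelihood test), and it was called in all 16 alternative fits (2.34 to 3.81). Thbs2 (ENSMUSG00000023885) maps to chromosome 17 (14665500 to 14694235, minus strand).

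Thbs1, its close relative and an activator of latent TGF-beta, was already abundant in wildtype corneas. It stood at 33.8, 78.6 and 41.0 CPM in W1 to W3 and at 123, 86.1 and 118 CPM in M1 to M3. The groups were separated by little, since the lowest mutant library was 1.1 times the highest wildtype library, W2. Its log2 fold change of 1.09 ± 0.31 (SE) did not pass (adjusted p = 0.062, edgeR's quasi-likelihood test), but did without W2 (1.55, adjusted p = 0.0097), with DESeq2 (0.0027) and with limma-voom (0.030). Thbs1 (ENSMUSG00000040152) maps to chromosome 2 (118111876 to 118127133, plus strand); the opposite-strand Gm29233, which overlaps 3.42% of its exon bases, had 0 counts.

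The make-up of the thrombospondins differed between genotypes. Per kilobase of exon, the ratio of Thbs2 to Thbs1 was 0.936, 0.917 and 0.285 in M1 to M3 and 0.117, 0.194 and 0.166 in W1 to W3. Thbs2 was thus nearly as high as Thbs1 in M1 and M2, and M3 stood between them and the wildtype libraries. The other members of the family did not pass: Thbs4 was at 51.7, 29.4 and 7.20 CPM in M1 to M3 and at 5.73 to 8.63 CPM in wildtype (log2 fold change 2.10 ± 0.60 SE, adjusted p = 0.066 by edgeR), and Comp and Thbs3 were at 7.04 CPM or less. Of these 3 genes 1 had an unadjusted p below 0.05, and DESeq2 called 1 and limma-voom 0; edgeR called 1 without M3 and 1 with no low-count filter.

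Receptors and partners of thrombospondins moved in both directions. Of 9 tested, Cd47, the widely expressed thrombospondin receptor, rose 1.53-fold, from 43.9 to 53.2 CPM to 68.3 to 79.0 CPM, and Calr, a chaperone that also acts at the cell surface, rose 1.69-fold. Itga3, a laminin receptor chain of epithelia, fell 1.85-fold and Sdc1, an epithelial heparan sulfate proteoglycan, 1.5-fold. Without M2, M3, W2 or W3 the count of higher genes was 0, and that of lower genes was 0 without M1, M2 or M3 and 1 without W2.

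Serpinf1 encodes PEDF, an inhibitor of vessel growth and a support of neurons, and was higher in every mutant library. It was at 106, 45.1 and 19.0 CPM in M1 to M3 and at 5.45, 16.2 and 8.29 CPM in W1 to W3, from 1724, 812 and 422 counts and 96, 285 and 155 counts. M3 was only 1.17 times W2, while M1 was 5.55 times M3. The log2 fold change of Serpinf1 was 2.50 ± 0.63 (SE; adjusted p = 0.043, edgeR's quasi-likelihood test). Its call depended on nearly every library: the adjusted p was 0.13 without M1, 0.098 without M2, 0.064 without W1, 0.058 without W2 and 0.12 without W3, and the log2 fold change was 1.37 without M1 and W1. The adjusted p was 0.13 with sex as a term in edgeR, which is not separate from leaving out M1, and 0.090 with limma-voom. Serpinf1 (ENSMUSG00000000753) maps to chromosome 11 (75409769 to 75422701, minus strand). Of 5 tested genes from a list of PEDF receptors and a related serpin, 0 passed (1 had an unadjusted p below 0.05, 0 were called by DESeq2 or limma-voom, and 1 by edgeR with no low-count filter); Plxdc2, a cell-surface receptor of PEDF, was at 98.6 to 132 CPM in mutant and 59.7 to 91.7 CPM in wildtype corneas (adjusted p = 0.15).

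**Figure D2:**
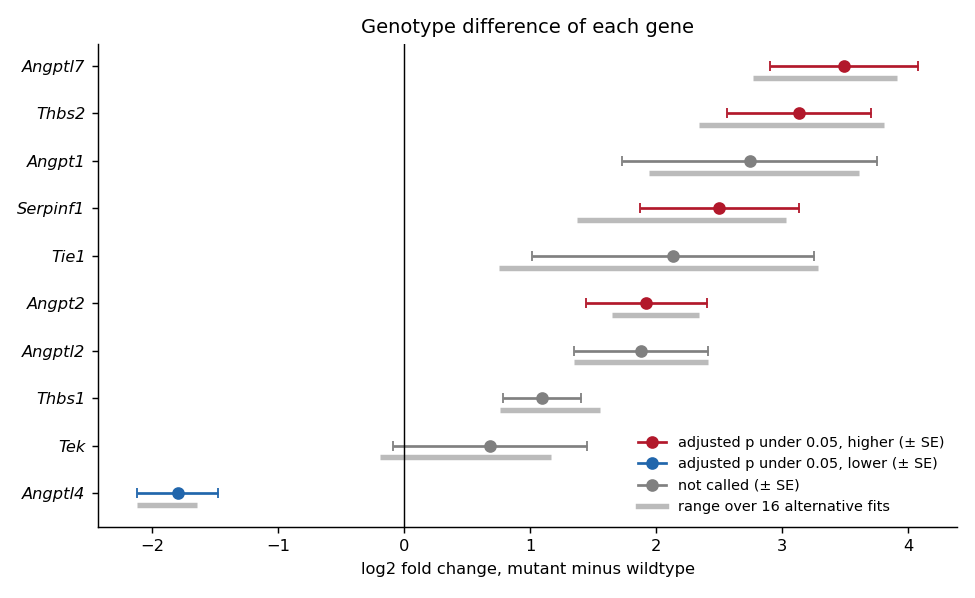
Log2 fold change of each gene, mutant minus wildtype (horizontal axis), with its SE; red and blue mark calls at an adjusted p below 0.05, grey marks genes not called, and the grey bars give the range over 16 alternative fits. Angptl7 and Thbs2 lay farthest to the right (3.49 and 3.13), Angptl4 was alone on the left (-1.80), and the range of Tek crossed 0.

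Set in order of mean level per kilobase of exon, the genes ranked differently in the genotypes. In wildtype corneas Thbs1 (8.42 ± 3.97 CPM per kilobase, SD, n = 3) and Angptl4 (6.81 ± 1.98) came first, followed by Serpinf1 (4.23 ± 2.36), Angptl7 (2.62 ± 1.17), Thbs2 (1.43 ± 0.969) and Angptl2 (1.07 ± 0.702). Tek, Angpt2, Tie1 and Angpt1 were between 0.110 and 0.525. The ranges of each adjoining pair of genes in this order overlapped. Within libraries, Angptl4 was above Serpinf1 and Angptl2 above Tek in all 3 wildtype libraries. In mutant corneas the means of Angptl7 (29.4 ± 21.4) and Serpinf1 (24.0 ± 18.8) headed the order, above Thbs1 (18.0 ± 3.29) and Thbs2 (12.5 ± 6.69). The ranges of these 4 genes overlapped from each to the next, and in M3 Thbs1 (19.5) was above Angptl7 (10.2) and Serpinf1 (8.05). A gap without overlap lay between Thbs2 and the next gene, Angptl2 (3.92 ± 1.24). Angptl4 (1.96 ± 0.680), second in wildtype, was sixth, and the angiopoietins and their receptors were again last, at 0.745 to 1.49.

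Most listed stromal markers rose in mutant corneas, as Angptl7, Thbs2 and Serpinf1 did. Of 19 tested keratocyte and stromal markers 12 rose, with a median log2 fold change of 2.34; 7 rose without M1, 2 without M2, 6 without W2 and 4 without W3. B3gnt7, a keratan sulfate enzyme, rose 8.62-fold and the proteoglycan Bgn 5.63-fold. The fibrillar and fibril-associated collagens Col5a2 and Col12a1 rose 5.43-fold and 4.51-fold. Among the 7 that did not pass were Kera and Lum (adjusted p = 0.10 and 0.078, edgeR's quasi-likelihood test), whose genotypes overlapped. The summed level was 6542, 2925 and 1641 CPM in M1 to M3 and 590, 809 and 614 CPM in W1 to W3. Among mutant libraries it was highest in M1 and lowest in M3, as were Angptl7, Thbs2 and Serpinf1. Col1a1 alone stood at 2704, 1013 and 383 CPM in M1 to M3, whereas B3gnt7 ran the other way (14.8, 19 and 25 CPM). Of 10 genes of sclera and trabecular meshwork, tissues that also express Angptl7, 4 rose, led by Chil1 at 11.5-fold (with Fmod, which is in both lists, Prelp and Matn2), and 2 rose without M1, M2 or W3. Their sum was 215 to 498 CPM in mutant and 20.8 to 103 CPM in wildtype corneas; Myoc, a defining gene of trabecular meshwork, was at 0 in W1 and at 6.53 to 44.0 CPM elsewhere. How much of the members' rises goes with these cells was not tested.

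Relative to the summed stromal markers, the genotypes overlapped for Serpinf1, Thbs2 and Angptl7. Col1a1 and Col1a2, which themselves rose, were a large and uneven part of that sum. They stood at 2704 and 1319 of 6542 CPM in M1 and at 138 and 121 of 809 CPM in W2, so the scale does not count cells. Per 1000 stromal marker counts, Serpinf1 was at 16.1, 15.4 and 11.6 in M1 to M3 and at 9.23, 20.0 and 13.5 in W1 to W3, with means of 14.4 and 14.2. Thbs2 was at 20.2, 31.1 and 23.7 in mutant and at 7.70, 21.8 and 12.8 in wildtype libraries, and Angptl7 at 17.3, 18.9 and 13.4 and at 14.5, 5.41 and 6.53. Their means were still higher in mutant libraries, at 25.0 against 14.1 for Thbs2 and 16.5 against 8.82 for Angptl7. The overlap of Angptl7 came from W1 alone, and that of Thbs2 from W2 alone. Angptl4 was apart on this scale, at 0.870 to 3.32 in mutant and 27.1 to 45.8 in wildtype libraries. Since it was already apart in CPM and the stromal sum rose, this ratio could only widen the gap. Thbs1, at 18.8 to 72.2 and 57.2 to 97.2, overlapped through M3 alone. The summed corneal epithelial markers were themselves lower in mutant corneas (30763 to 37117 CPM against 54569 to 75960 CPM). Per 1000 counts of these markers, Angptl4 was at 0.185, 0.262 and 0.174 in M1 to M3 and at 0.211, 0.452 and 0.516 in W1 to W3. The genotypes overlapped through W1 alone, and W2 and W3 were above every mutant library. Of the 16 epithelial genes 7 fell and 1 rose (2 without W1); the transketolase Tkt fell 3.55-fold, the uroplakin Upk1b 2.30-fold and the desmosomal cadherin Dsc3 2.80-fold, and Krt14, of basal cells, rose 4.01-fold.

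**Figure D3:**
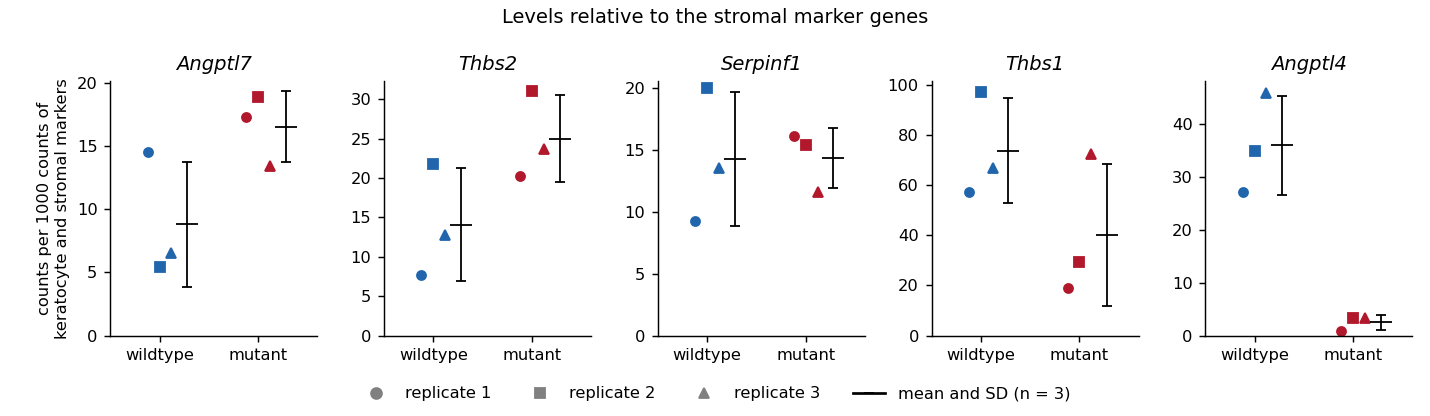
Counts of 5 genes per 1000 counts of the 19 keratocyte and stromal markers (vertical axes) in the wildtype (blue) and mutant (red) libraries, with mean and SD. The genotypes overlapped for Angptl7, Thbs2, Serpinf1 and Thbs1 on this scale, and were apart for Angptl4 (0.870 to 3.32 against 27.1 to 45.8). The overlap came from W1 alone for Angptl7, from W2 alone for Thbs2 and from M3 alone for Thbs1. Angptl4 fell while the stromal sum rose, so its ratio could only be apart.

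Markers of other cell types in or near the cornea were called in some lists and not in others. Of 13 tested macrophage genes 6 rose, among them the leukocyte antigen Ptprc by 17.5-fold and the lipopolysaccharide co-receptor Cd14 by 4.72-fold, with a sum of 186 to 238 CPM in mutant and 54.2 to 74.6 CPM in wildtype corneas. Platelets, a store of thrombospondin-1, left few counts, and 2 of the 7 listed markers were tested. Ppbp had no wildtype count and 1.28 to 5.45 CPM in mutant corneas, and was called by edgeR except without M3. Itga2b was at 3.26 to 5.75 CPM in all libraries and did not pass (adjusted p = 0.58, edgeR's quasi-likelihood test). Pf4, which was not tested, was at 0.18 to 0.555 CPM in mutant and 0 to 0.0535 CPM in wildtype corneas. Gp9 and Gp1ba were at 0 in every library. Of 7 corneal endothelial genes Car12, a carbonic anhydrase, rose 4.78-fold, and 2 of the list rose without W2; the sum was 340 to 449 CPM in mutant and 185 to 289 CPM in wildtype. The 9 pigment cell markers (239 to 420 CPM in mutant, 11.2 to 318 CPM in wildtype, lowest in W1) and the 5 tested lens markers (6.18 to 27.6 and 6.76 to 26.9 CPM) had 0 calls by edgeR, DESeq2 or limma-voom and 0 at an unadjusted p below 0.05, though edgeR called 1 pigment gene lower without W1 and 4 higher with no low-count filter. The part of these cells in the differences of the 10 genes was not tested.

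**Figure D4:**
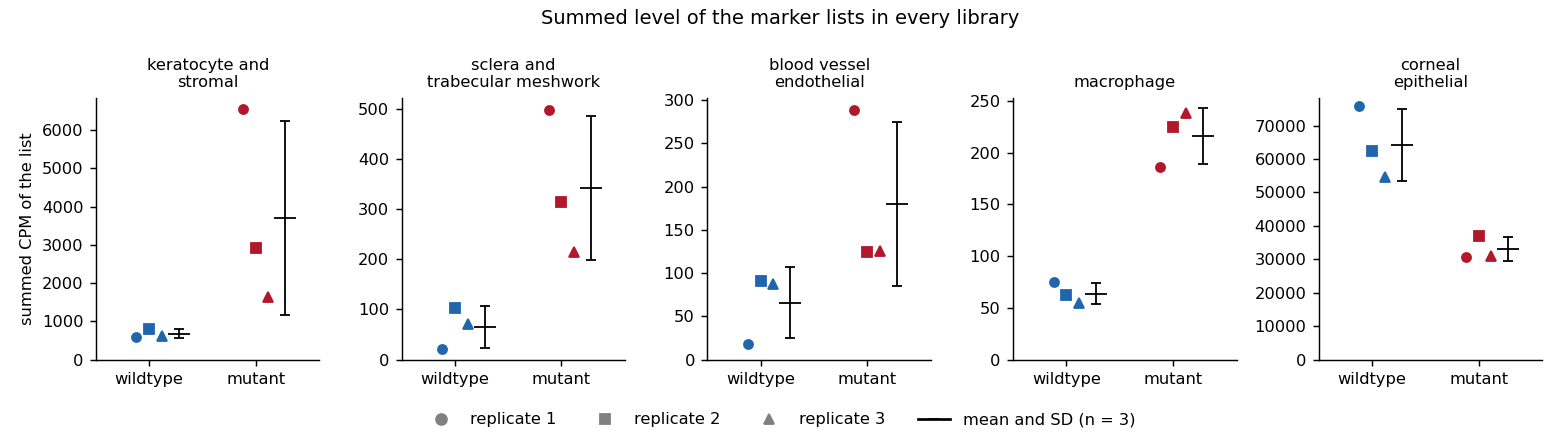
Summed CPM of 5 marker lists (vertical axes) in the wildtype (blue) and mutant (red) libraries, with mean and SD. The stromal sum was 1641 to 6542 CPM in mutant and 590 to 809 CPM in wildtype corneas, the epithelial sum was lower in all 3 mutant libraries, and W1 had the lowest vessel and sclera sums.

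The genes whose levels ran most nearly parallel to each of the 10 over the 6 libraries were found by Pearson correlation of log2 CPM among 9720 genes. The libraries share the genotype split, so these values only describe likeness. Serpinf1 ran closest to Dcn, the stromal proteoglycan decorin (r = 0.993), Slc25a37 (r = 0.989) and Hmmr (r = 0.988), and Thbs2 to Mmp2, a matrix metalloproteinase (r = 0.998), Calcrl (r = 0.996) and P2ry1 (r = 0.995). Tie1 ran closest to Adgrf5 (r = 0.998) , the endothelial co-receptor Eng (r = 0.997) and Pmp22 (r = 0.996), and Tek to Aldh3a2 (r = 0.994), Prb1 and the VEGF receptor Kdr (r = 0.986 for both). Angptl4 ran closest to Bub3, Upk3bl and the immediate early gene Ier2 (r = 0.996, 0.995 and 0.994), and all of these fell. Angptl2 ran closest to the cytoskeletal genes Tns1 and Actn1 (r = 0.996 and 0.995) and to Ogfrl1 (r = 0.995), and Angptl7 to Fndc3b, Sass6 and Cdk18 (r = 0.990, 0.987 and 0.986). For Angpt2 these were N4bp2l1, Il13ra1 and Hsph1 (r = 0.990, 0.990 and 0.988), and for Angpt1 they were Stag1, Tmem158 and Tra2a (r = 0.999, 0.999 and 0.995). Thbs1 was nearest to Lix1l, Sftpd and Ptpn18 (r = 0.997, 0.994 and 0.994). Such values are common with 6 libraries: 44 to 239 genes exceeded 0.95 for each of the 10.

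Exons of Csf1r, Svep1, Thbs3, Angptl1, Abcc9, Notch3, B3gnt7, Matn2, Prelp, Myoc, Krt12 and Tkt overlap other annotated genes, most of them antisense. The labels do not say how strand was handled in counting, so reads of such pairs could have been shared.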

How the data were processed

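The authors deposited whole-number counts for each Ensembl gene in 6 libraries, 1 file each, without normalization. Per the labels' protocols, total RNA went through a stranded kit for very small inputs and was read as pairs of 100 nucleotides. Trim Galore, HISAT2, SAMtools, HTSeq and edgeR with build GRCm38 are named in the submitters' processing notes, without versions or settings. The 5 summary lines, 53.3% of the total over all lines, were left out. Names and exons came from GENCODE M21 (same build).

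The filter was filterByExpr with a minimum count of 10 and a minimum total of 15 and kept 15209 genes, which were compared with edgeR 4.0.16 in R 4.3.3: TMM scaling, the quasi-likelihood test and Benjamini-Hochberg adjustment, with genotype as the only term. SE is the log2 fold change divided by the root of the F statistic. CPM uses TMM-scaled totals. Scripts were tested on 3 simulated sets, where edgeR called 22.7% of genes changed 2-fold and 58.6% of those changed 4-fold. Of its calls there 6.85% were false. A gene that did not pass may therefore still differ. Alternatives were other scalings and filters, DESeq2 1.42.0, limma-voom (limma 3.58.1), sex as a term, the fit without mitochondrial or structural RNA, and left-out libraries. With M1 the only female, sex as a term and the fit without M1 are not separate checks. No libraries were duplicates: pairs within a genotype had a chi-square of 19.4 to 60.1 per degree of freedom; the series design names them biological replicates, and p-values measure the spread between these samples. Intervals and floors cover counting error only.

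The 10 genes and 19 lists were chosen with earlier results of these data known. The result of 1 list is not reported here. From each list, genes were named by smallest p (up to 4), with any called against the majority. Krt12, Thy1, Ogn, Kera, Lum, Col1a1, Col1a2, Cdh5, Plvap, Myoc, Pf4, Gp9, Gp1ba and Angptl8 were named after their values were seen. The most parallel genes were the 3 with the highest correlation, with an official symbol and at least 5 CPM.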

Additional observations from a re-analysis of the deposited data

How the results depend on the processing

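The 4 higher and 1 lower of the 10 genes kept their number under RLE, upper-quartile and no composition factors, a 1 CPM filter, the fit without structural RNA, and limma-voom, although limma-voom called Angptl2 and Thbs1 in place of Angpt2 and Serpinf1. With DESeq2, 7 were higher, with no low-count filter 8, and with sex as a term 0 were lower. Without the filter the adjusted p of Angptl7 was 1.9e-58, against 0.0098 in the main fit (edgeR's quasi-likelihood test in both). Its log2 fold change hardly moved (3.48 and 3.49), so calls without the filter do not compare with the others on equal terms. Leaving out 1 library gave 2 to 5 higher and 0 to 1 lower of the 10, and 340 to 1227 higher and 271 to 847 lower of all genes. Over all genes, DESeq2 called 1325 higher and 1033 lower, the fit without a filter 1588 and 1137 (of 28717 tested), and the fit with sex as a term 471 and 376, against 850 and 679. The log2 fold change of Tek was -0.19 without M1 and W1; 1 of the other genes, Serpinf1, lost its call there. With no low-count filter, 8 sclera and trabecular meshwork genes, 5 pericyte genes and 4 corneal endothelial genes were higher, against 4, 1 and 1. No scaling moved the median of all genes by more than 0.04. Fewer samples were tested where libraries were left out, and the cause of the other changes was not tested. No paired analysis was possible because the labels give no replicate numbers shared by the genotypes. Angpt1, Angpt2, Tek and Tie1 had at most 176 counts in any library.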
